A study of Arabidopsis thaliana with 16 samples.

Results

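The CLE signalling peptide genes of Arabidopsis thaliana were followed in maps of H3K27me3, the trimethylation of lysine 27 on histone H3. Members were the genes of chromosomes 1 to 5 of the TAIR10 annotation whose symbol is CLE followed by a number, together with CLV3 (CLAVATA3), the founding gene of the family. This gave 31 genes, 30 CLE genes and CLV3, of 37887 annotated genes. A gene was called marked in a library when H3K27me3 peaks covered at least 50% of its body, from the annotated start to the annotated end of the gene.

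CLE genes encode small secreted precursor proteins, from which a short peptide near the C-terminus is cut out and modified. The peptide binds leucine-rich repeat receptor kinases on neighbouring cells. CLV3 acts through CLV1 to hold back WUSCHEL and so limits the stem cells of the shoot meristem, CLE40 plays a like part at the root tip, and CLE41, CLE44 and CLE42 act through the receptor PXY to keep vascular stem cells from becoming xylem. H3K27me3 is laid down by Polycomb repressive complex 2 and is associated with genes that are silent in a given tissue or stage.

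The series holds 12 H3K27me3 ChIP-seq libraries from whole seedlings, 2 in each of 6 groups, which pair 3 genotypes with harvest at 3 or 1 days after imbibition (DAI). The genotypes were Atsdr4l-4, Atsdr4l-5 and their parent Col-0, all in the Col-0 background and all grown with 1% sucrose. Atsdr4l-4 and Atsdr4l-5 each carry a segmental deletion in ATSDR4L (SEED DORMANCY 4-LIKE), and the Atsdr4l-5 plants were bulked from several lines of a backcross. The design asks how H3K27me3 differs between the time points and between the mutants and Col-0.

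Peak lists, not read counts, were the data, so the sequencing depth behind each peak is unknown and no expression value can check the tissue against its markers. The libraries held 6582 to 7068 peaks at 3 DAI and 6474 to 6800 at 1 DAI, covering 24.9 to 28.2 Mb at 3 DAI and 21.3 to 25.3 Mb at 1 DAI. None of the peaks at 3 DAI lay on an organelle genome, whereas 15 to 27 did in 5 of the 6 libraries at 1 DAI, the exception being Atsdr4l-4 replicate 1 with 0. The labels do not say that replicates came from separate cultures, so the p-values measure only the spread between these libraries.

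The part of a CLE gene that becomes the peptide is the CLE motif of 12 residues, 36 bases long in the gene, and a motif was found in all 31 members. The precursors had 74 to 165 residues. In 17 members the motif was the end of the coding sequence, whereas CLE18 had 53 residues after it. The first residue was arginine in 28 members and histidine in CLE41, CLE42 and CLE44, the 3 genes of the xylem-inhibiting type. Most members were compact, 28 with 1 coding exon, CLE25 with 2, and CLV3 and CLE40 with 3. Their median gene length was 829 bp, against 1797 bp over all genes. The motif is shown for CLV3 and for the 5 members with the largest differences in coverage between the time points, in either direction, with capitals where a base differs from CLV3 (TAIR10.1 genome of RefSeq, coding strand, 5′ to 3′).
CLV3: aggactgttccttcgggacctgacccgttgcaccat
CLE13: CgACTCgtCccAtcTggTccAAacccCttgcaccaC
CLE40: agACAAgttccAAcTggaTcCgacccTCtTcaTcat
CLE12: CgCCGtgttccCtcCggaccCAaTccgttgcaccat
CLE43: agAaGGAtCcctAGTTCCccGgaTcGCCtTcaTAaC
CLE18: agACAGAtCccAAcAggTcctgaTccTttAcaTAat
CLE12 differed from CLV3 at 9 bases and 2 residues, CLE13 at 13 bases and 2 residues, CLE40 at 13 bases and 3 residues, CLE18 at 15 bases and 4 residues, and CLE43 at 20 bases and 5 residues.

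Some members encode the same peptide from different DNA, and examples are shown. CLE5 and CLE6 lay together in 1 peak in each of the 12 libraries, whereas CLE41 and CLE44 lie on different chromosomes. CLE5 and CLE6, neighbours that act in leaf shape, and CLE41 and CLE44, which make the xylem-inhibiting peptide TDIF, are set out with capitals where the bases of a pair differ.
CLE5: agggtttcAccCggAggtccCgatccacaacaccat
CLE6: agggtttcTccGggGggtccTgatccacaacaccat
CLE41: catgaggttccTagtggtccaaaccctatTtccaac
CLE44: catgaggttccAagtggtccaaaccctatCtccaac
The CLE5 and CLE6 motifs differed at 4 bases and the CLE41 and CLE44 motifs at 2, with 0 residue changes in either pair. CLE9 and CLE10, which act in the stomatal lineage and in xylem, also shared their 12 residues, at 4 different bases. The motifs of CLE1, CLE3 and CLE4 encoded the same 12 residues with 7 to 10 different bases per pair. Genes with the same peptide did not all have the same H3K27me3, since CLE4 was marked in all 12 libraries, CLE3 in 11 and CLE1 in none. Their motifs are given in full, in lower case as no part is singled out, with those of the other 3 members that were marked in no library.
CLE4: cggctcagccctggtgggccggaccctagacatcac
CLE3: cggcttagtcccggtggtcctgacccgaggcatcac
CLE1: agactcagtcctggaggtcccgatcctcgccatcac
CLE16: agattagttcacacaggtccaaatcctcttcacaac
CLE25: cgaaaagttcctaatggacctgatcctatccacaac
CLE45: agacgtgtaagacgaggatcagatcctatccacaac

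Most CLE genes carried H3K27me3 throughout. Of the 31 members, 19 (61.3%) were marked in all 12 libraries, 8 (25.8%) in some and 4 (12.9%) in none. Over all annotated genes 16.3% were marked in all 12 libraries, 11.5% in some and 72.2% in none, and 17.8% of the 27432 protein-coding genes were marked in all 12. These shares are a description with no test, since the family was named with results of these data known.

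**Figure D1:**
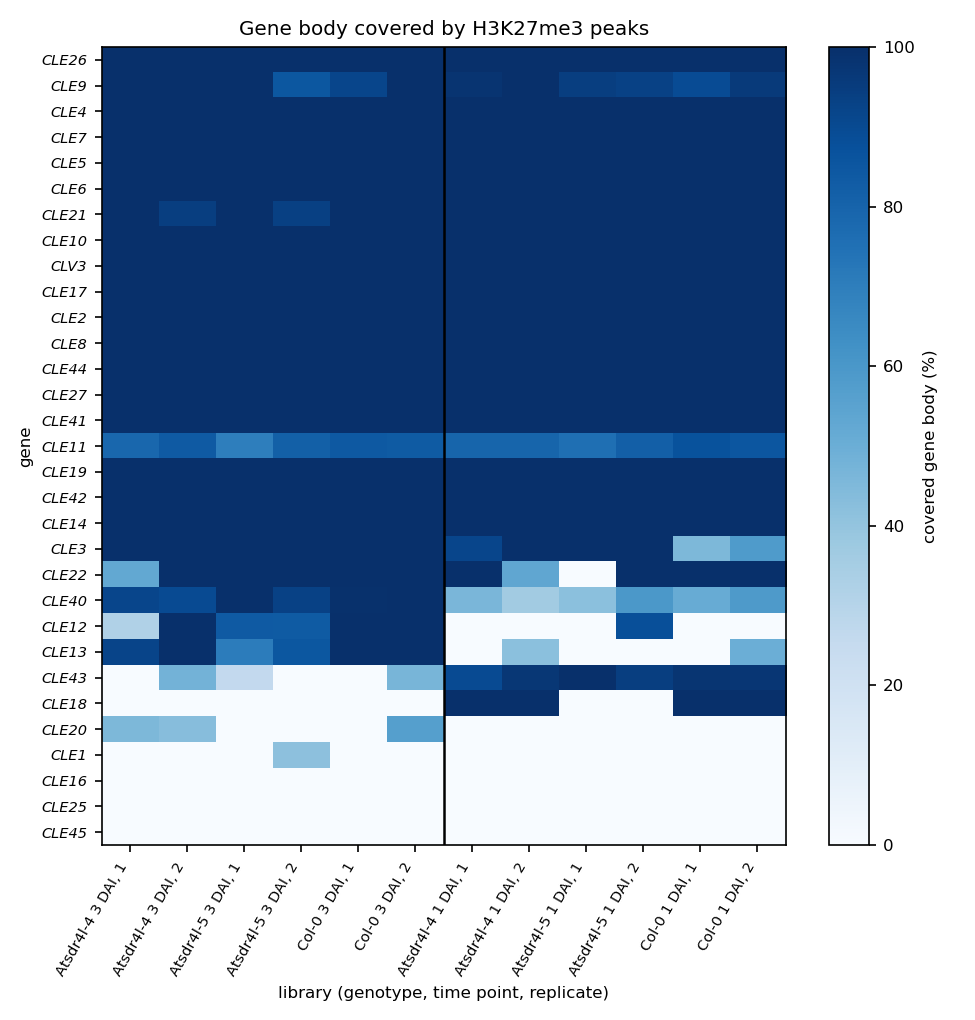
Percent of each gene body covered by H3K27me3 peaks (colour, 0 to 100%) for the 31 CLE family genes (rows) in the 12 libraries (columns, 3 DAI left of 1 DAI and the Atsdr4l mutants left of Col-0). The 19 genes marked in all 12 libraries and the 4 marked in none lie at the top and the bottom, and the 8 marked in some libraries lie between them.

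The number of members marked per library hardly differed between groups. It was 23 and 24 for Atsdr4l-4, 24 and 24 for Atsdr4l-5 and 24 and 25 for Col-0 at 3 DAI. The 1 DAI libraries had 23 and 23 for Atsdr4l-4, 21 and 24 for Atsdr4l-5 and 23 and 24 for Col-0. The means were 24.0 ± 0.632 at 3 DAI and 23.0 ± 1.1 at 1 DAI (SD, n = 6 each), a gap smaller than the SD at 1 DAI. The share of all genes that were marked was 22.9 to 24.5% at 3 DAI and 18.8 to 20.9% at 1 DAI, without overlap.

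Among the always-marked members were the shoot meristem gene CLV3, the xylem-inhibiting genes CLE41, CLE42 and CLE44, and CLE8 and CLE19, which act in the developing embryo and seed. CLE9, CLE10, the phloem gene CLE26 and CLE14, known from phosphate-starved roots, belong here too, with CLE2, CLE4, CLE5, CLE6, CLE7, CLE11, CLE17, CLE21 and CLE27. Of the 19, 12 lay in peaks with a median width over 5 kb. Peaks covered CLV3 (AT2G27250, chr2:11664978-11665797, minus strand) fully in every library, inside domains of 14428 to 15069 bp. The fold enrichment of that domain, MACS2's ratio of ChIP signal to mock signal averaged over the peak, was 2.89 and 3.08 for Atsdr4l-4, 3.10 and 3.41 for Atsdr4l-5 and 2.89 and 2.90 for Col-0 at 3 DAI. The 1 DAI libraries had 2.76 and 3.06 for Atsdr4l-4, 2.46 and 2.96 for Atsdr4l-5 and 2.58 and 2.89 for Col-0. The 3 genotypes overlapped in range at 1 DAI, and at 3 DAI the Col-0 values lay within the range of Atsdr4l-4 and below both Atsdr4l-5 values. Over the 12 libraries CLE9 had the highest single fold enrichment of the 19, 2.66 to 4.06, and CLE26, CLE21 and the CLE4 cluster also had medians above 3. CLE14 had the lowest median, at 1.69 to 2.29. CLE11, the longest member at 2999 bp, was the least covered of the 19, at 69.9 to 87.1%, and an annotated long noncoding RNA gene overlaps it, as one does CLE21 and CLE45. CLE16, CLE20 and CLE44 overlap other annotated genes, and a peak there cannot be assigned to one of the pair.

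Of the members, 4 never reached the threshold. CLE16, CLE25, which moves from root to shoot under drought, and CLE45, which acts through BAM3 in root protophloem, had 0% of their bodies covered in all 12 libraries. CLE1, known from nitrogen-starved roots, had 0% in 11 libraries and 41.7% in Atsdr4l-5 replicate 2 at 3 DAI. Lists of peaks hold only regions past the caller's threshold, so 0% means that no peak was called there.

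Coverage of 2 members rose and that of 1 fell between the time points by a test over the libraries. The first were CLE13 and CLE40 and the other was CLE43, and the covered percents of the 6 libraries at 3 DAI and the 6 at 1 DAI did not overlap for any of them. The test exchanged the 3 DAI and 1 DAI labels among the libraries of a genotype in every possible way (exact permutation, both directions counted), and the smallest p it can give is 0.00926. It was run on the 9216 genes of the genome whose covered percent varied, 13 of them members, with Benjamini-Hochberg adjustment over all 9216. Called higher at 3 DAI were 2 of the 13 members, against 19.7% of all genes tested, and called lower was 1 member, against 1.66%. The median difference of the 13 members was 6.96 percentage points, with 8 higher and 5 lower, and that of all genes tested was 7.44 points, with 76.9% higher. In bulk seedlings, fewer cells with the mark and less mark per cell cannot be told apart.

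CLE13 (AT1G73965, chr1:27815627-27816468, plus strand) stood alone in a narrow peak. At 3 DAI, peaks covered 92.0% and 100% of it in Atsdr4l-4, 70.5% and 85.0% in Atsdr4l-5 and 100% and 100% in Col-0. At 1 DAI the values were 0% and 41.9% for Atsdr4l-4, 0% and 0% for Atsdr4l-5 and 0% and 49.8% for Col-0. The mean was 91.3 ± 11.8% at 3 DAI and 15.3 ± 23.8% at 1 DAI (SD, n = 6 each), a difference of 76.0 points (exact permutation p = 0.00926, adjusted p = 0.0434). The peak was 594 to 1382 bp wide at 3 DAI with a fold enrichment of 1.86 to 2.11, so this is an isolated patch of modest enrichment. CLE13 was the only member marked in both replicates at 3 DAI and in neither at 1 DAI in all 3 genotypes.

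CLE40 (AT5G12990, chr5:4109234-4109784, minus strand), the root counterpart of CLV3, lay in a peak at both time points. Its coverage at 3 DAI was 91.7% and 89.7% for Atsdr4l-4, 100% and 93.3% for Atsdr4l-5 and 99.3% and 100% for Col-0. The libraries at 1 DAI had 46.3% and 36.1% for Atsdr4l-4, 41.9% and 59.5% for Atsdr4l-5 and 50.8% and 58.8% for Col-0. The lowest library at 3 DAI, at 89.7%, lay above the highest at 1 DAI, at 59.5%, and the means were 95.6 ± 4.66% and 48.9 ± 9.31% (SD, n = 6 each), a difference of 46.7 points (exact permutation p = 0.00926, adjusted p = 0.0434). Its peak widened to 751 to 1256 bp at 3 DAI, against 480 to 805 bp at 1 DAI. At 1 DAI its libraries fell on both sides of the 50% threshold, from 46.3% just below to 50.8% just above.

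CLE43 (AT1G25425, chr1:8922416-8923879, plus strand) went the other way. At 3 DAI its coverage was 0% and 47.7% for Atsdr4l-4, 25.8% and 0% for Atsdr4l-5 and 0% and 46.6% for Col-0. The values at 1 DAI were 89.8% and 96.9% for Atsdr4l-4, 100% and 94.3% for Atsdr4l-5 and 97.9% and 97.6% for Col-0. The mean fell to 20 ± 23.3% at 3 DAI, against 96.1 ± 3.58% at 1 DAI (SD, n = 6 each), a difference of -76.1 points (exact permutation p = 0.00926, adjusted p = 0.0434). What was left at 3 DAI were peaks of 377 to 699 bp in 3 libraries, against 1418 to 3273 bp at 1 DAI, and in the other 3 libraries the nearest peak lay 3008 to 3071 bp away.

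These 3 calls sit at the smallest p the design allows. The adjusted p was 0.0501 to 0.0513 for all 3 when Atsdr4l-5 replicate 1, Atsdr4l-5 replicate 2 or Col-0 replicate 1 at 3 DAI or Atsdr4l-4 replicate 1 at 1 DAI was left out, while the unadjusted p stayed at 0.00926, and without Atsdr4l-4 replicate 2 at 1 DAI it was 0.0796 for CLE43. With only peaks of a −log10 q of at least 5, or of a fold enrichment of at least 2, the test called 0 genes in the whole genome, and CLE43 had no such peak in any library. With the 6000 peaks of highest −log10 q of each library, which gives every library the same number of peaks, all 3 were still called, with differences of 91.3 points for CLE13, 53.7 for CLE40 and -96.1 for CLE43.

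**Figure D2:**
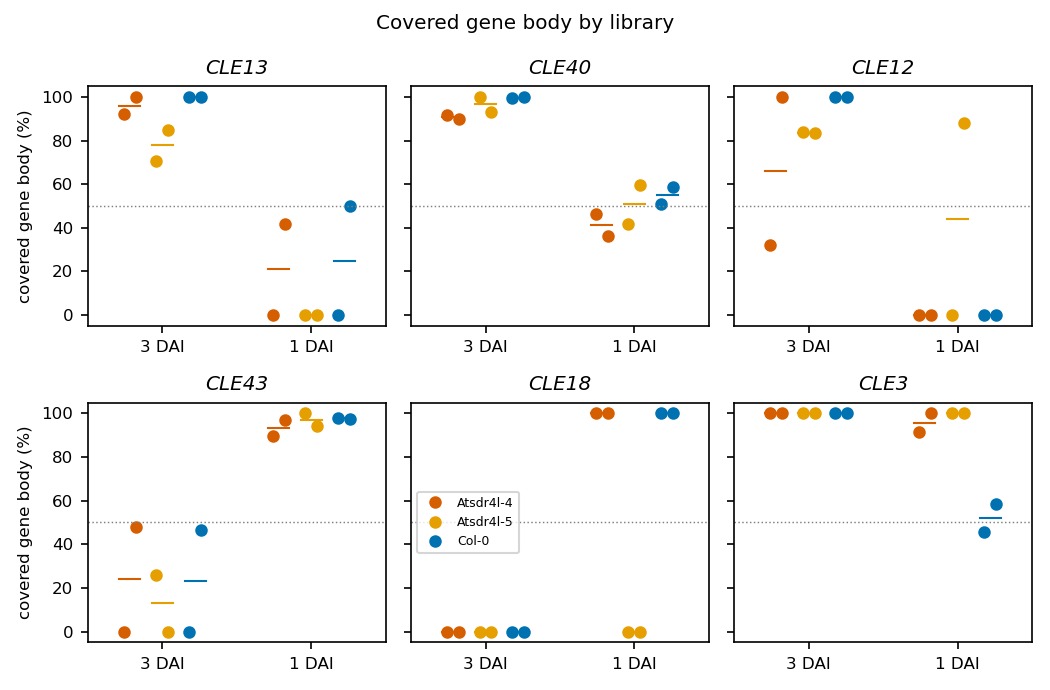
Percent of the gene body covered by H3K27me3 peaks (vertical axis, 0 to 100%) for 6 CLE genes, 1 point per library, with 3 DAI left of 1 DAI, colours for the genotypes, short lines for the mean of each pair and a dotted line at the 50% threshold. CLE13 and CLE40 are higher at 3 DAI and CLE43 is lower, with no overlap of the time points, whereas CLE12, CLE18 and CLE3 overlap.

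The other members that varied did not pass. CLE12 (AT1G68795, chr1:25840626-25841686, minus strand) had 32.0% and 100% of its body covered in Atsdr4l-4, 83.7% and 83.4% in Atsdr4l-5 and 100% and 100% in Col-0 at 3 DAI. At 1 DAI the gene had 0% in 5 libraries and 88.2% in Atsdr4l-5 replicate 2. That 1 library decided the outcome: the difference was 68.5 points (83.2 ± 26.4% and 14.7 ± 36%, SD, n = 6 each, exact permutation p = 0.0278, adjusted p = 0.0871), and without it 83.2 points (exact permutation, adjusted p = 0.0480).

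CLE18 (AT1G66145, chr1:24628530-24628835, minus strand), the shortest member at 306 bp, had no peak in any library at 3 DAI. At 1 DAI coverage was 100% in both Atsdr4l-4 and both Col-0 libraries and 0% in both Atsdr4l-5 libraries, where the nearest peak ended 385 and 8 bp away. The difference was -66.7 points (exact permutation p = 0.0556, adjusted p = 0.151). Over a window of 2 kb centred on the gene the same comparison gave -71.6 points (exact permutation p = 0.00926, adjusted p = 0.0446), so the call turned on the width of the window.

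CLE20, CLE3 and CLE22 differed less. CLE20 was covered 45.7% and 43.2% for Atsdr4l-4, 0% and 0% for Atsdr4l-5 and 0% and 56.6% for Col-0 at 3 DAI, and 0% in all 6 libraries at 1 DAI (24.3 points, exact permutation p = 0.167, adjusted p = 0.317). CLE3, known from nitrogen-starved roots, was covered 100% in all 6 libraries at 3 DAI. Its coverage at 1 DAI was 91.6% and 100% for Atsdr4l-4, 100% and 100% for Atsdr4l-5 and 45.4% and 58.5% for Col-0 (17.4 points, exact permutation p = 0.167, adjusted p = 0.317). CLE22 was at 52.4% in Atsdr4l-4 replicate 1 and 100% in the other 5 libraries at 3 DAI, and at 100%, 53.5%, 0%, 100%, 100% and 100% at 1 DAI in Atsdr4l-4, Atsdr4l-5 and Col-0 in turn (16.5 points, exact permutation p = 0.833, adjusted p = 1.00). Its fold enrichment of 1.36 to 1.54 was low for a member. The remaining 5 members that varied were CLE1, CLE8, CLE9, CLE11 and CLE21.

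No difference between the mutants and Col-0 passed the test on coverage. Here the genotype labels were exchanged among the libraries of a time point, with a smallest possible p of 0.00444, over the same 9216 genes. Called were 0 members and 0% of all genes tested, and the smallest adjusted p of any gene was 0.548. Since p cannot fall below 0.00444, a gene passes the adjustment over 9216 genes only if many genes reach that value together. The 0% therefore does not show that coverage was the same in the mutants and Col-0. The paper reports regions of raised and of reduced H3K27me3 in the mutants, from a differential binding analysis. At an unadjusted p under 0.05 the permutation test gave 0 of the 13 members that varied higher and 1 lower, against 223 and 347 of the 9216 genes. The 1 member was CLE11, at 78.7% in the 8 Atsdr4l libraries and 85.0% in the 4 Col-0 libraries (-6.23 points, exact permutation p = 0.0311, adjusted p = 0.548).

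At 1 DAI the coverage of CLE3 and CLE11 did not overlap between the mutants and Col-0. The share of all genes that part in this way was not counted, so no genotype effect is read from these values. For CLE11 the 4 Atsdr4l libraries at 1 DAI lay at 75.5 to 82.0% and the Col-0 libraries at 87.1% and 85.5%. In CLE3 the 4 Atsdr4l libraries at 1 DAI lay at 91.6 to 100% and the Col-0 libraries at 45.4% and 58.5%. Over both time points the means were 99.0% in Atsdr4l and 76.0% in Col-0 (23.0 points, exact permutation p = 0.0667, adjusted p = 0.548), and within 1 time point the smallest p that 4 against 2 libraries allow is also 0.0667. The CLE3 direction turned to -2.13 points with peaks of a −log10 q of at least 5 and to -37.5 points with peaks of a fold enrichment of at least 2. CLE18 split between the mutant alleles, since Atsdr4l-5 lacked the peak that Atsdr4l-4 and Col-0 had (-25.0 points for the mutants together, exact permutation p = 0.467, adjusted p = 0.904).

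The same picture came from genes marked in both replicates of one group and neither of another. Between 3 and 1 DAI, 2 members gained the mark in Atsdr4l-4 (CLE13 and CLE40, background 2.16% of all genes), 1 in Atsdr4l-5 (CLE13, 2.87%) and 2 in Col-0 (CLE12 and CLE13, 3.31%). Lost were 2 members in Atsdr4l-4 (CLE43 and CLE18, background 0.343%), 1 in Atsdr4l-5 (CLE43, 0.261%) and 2 in Col-0 (CLE43 and CLE18, 0.438%). CLE12 and CLE40 were each counted in 1 genotype only, and whether that differs between genotypes was not tested. Marked in all 4 Atsdr4l libraries and neither Col-0 library were 0 members at 3 DAI (background 0.0633%) and 0 at 1 DAI (0.179%). Marked in both Col-0 libraries and none of the 4 Atsdr4l libraries were 0 members at 3 DAI (0.277%) and 0 at 1 DAI (0.182%).

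The cluster of CLE4, CLE7, CLE5 and CLE6 on chromosome 2 changed in the shape of its domain and not in its gene calls. The 4 genes lie in this order within 16839 bp and were covered 100% in all 12 libraries. One peak of 22367 to 27746 bp spanned all 4 genes in each of the 6 libraries at 3 DAI. In each of the 6 at 1 DAI there were 2 separate peaks, of 12718 to 13407 bp over CLE4 and CLE7 and of 7202 to 7985 bp over CLE5 and CLE6. The interval between CLE7 and CLE5 (chr2:13241857-13252075, 10219 bp) was covered 100 ± 0% at 3 DAI and 82.6 ± 2.07% at 1 DAI (SD, n = 6 each), a difference of 17.4 points. In this interval, chosen after its values were seen, the exact permutation p was 0.00926, the smallest possible. The share of other domains that joined in this way was not counted, so the joining is not read as particular to this cluster. At 1 DAI the Atsdr4l libraries had 80.6 to 82.0% and the Col-0 libraries 84.5% and 85.7%. These values did not overlap, but the smallest exact permutation p that 4 against 2 libraries allow is 0.0667. How many other intervals part in this way was not counted, so no genotype effect is read from these values.

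**Figure D3:**
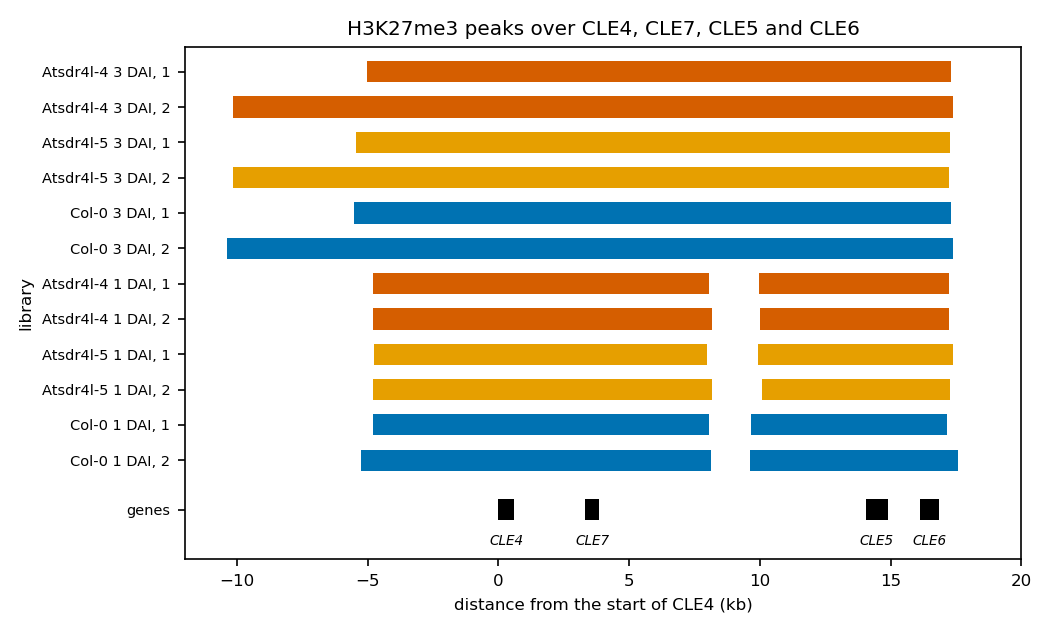
Extent of the H3K27me3 peaks (bars, distance in kb from the start of CLE4) over the CLE4, CLE7, CLE5 and CLE6 cluster in the 12 libraries, 3 DAI above 1 DAI, with the genes drawn as boxes. A single bar spans the 4 genes in the 6 libraries at 3 DAI, and a gap parts CLE7 from CLE5 in the 6 at 1 DAI.

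CLE12 sits at the edge of a broad domain that lies upstream of it. Counted from the start of CLE12, with negative positions running into the gene and past it, the near edge of the domain at 3 DAI was at 859 and -1831 bp for Atsdr4l-4, -887 and -884 bp for Atsdr4l-5 and -1772 and -1579 bp for Col-0. The edges at 1 DAI were at 355 and 512 bp for Atsdr4l-4, 616 and -935 bp for Atsdr4l-5 and 422 and 470 bp for Col-0. In the 5 libraries at 1 DAI with 0% of CLE12 covered, the domain was therefore present and ended 355 to 616 bp short of the gene.

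At 1 DAI the domain beside CLE12 was called as 2 peaks in the 4 mutant libraries and as 1 peak in the 2 Col-0 libraries. At 3 DAI 1 peak of 21555 to 25185 bp was present in all 6 libraries and covered 96.1 to 100% of the 22 kb upstream of the gene. At 1 DAI 2 peaks covered 92.5% and 87.7% of it for Atsdr4l-4 and 89.2% and 93.0% for Atsdr4l-5, whereas 1 peak covered 98.1% and 97.9% for Col-0. The 4 mutant libraries did not overlap with the 2 Col-0 libraries, and the smallest exact p of such a split is 0.0667, so it cannot pass 0.05. The region was chosen after its values were seen, and its 22 kb are close to the Col-0 peak widths at 1 DAI, 22008 and 21956 bp. The share of other domains that split in this way was not counted, so no genotype effect is read from it.

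**Figure D4:**
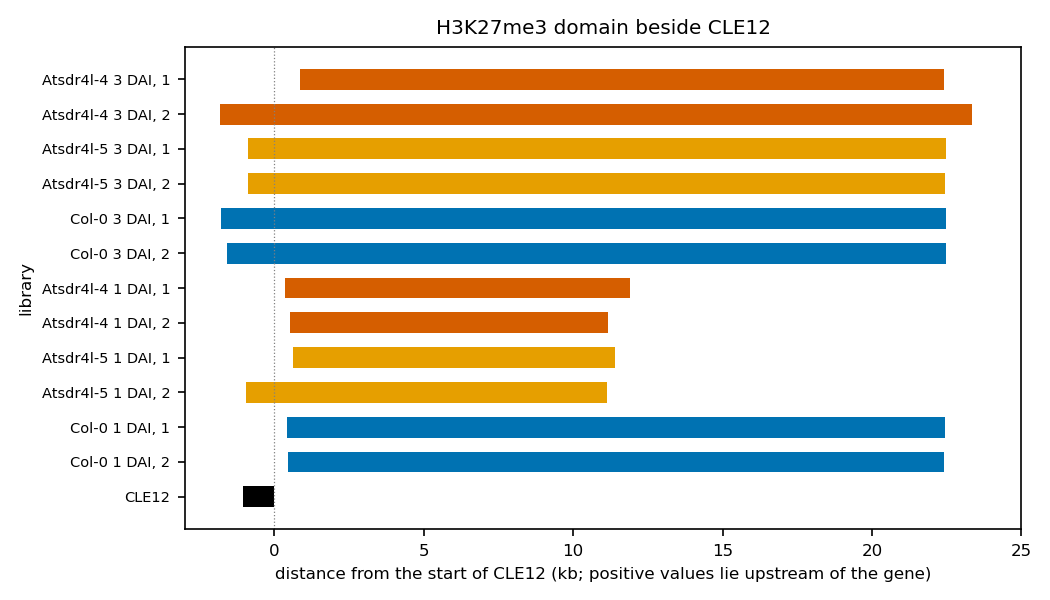
Extent of the H3K27me3 peak nearest the CLE12 side of the domain (bars, distance in kb from the start of CLE12, upstream positive, the gene as a black box) in the 12 libraries, 3 DAI above 1 DAI and the Atsdr4l mutants above Col-0. The domain reaches into CLE12 in 5 of 6 libraries at 3 DAI and 1 of 6 at 1 DAI, and is only 10655 to 12074 bp wide in the 4 Atsdr4l libraries at 1 DAI, where a second peak, not drawn, follows.

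Among the 19 always-marked members, the strength of the mark also differed between time points. CLE44, CLE27 and CLE42 fell relative to the median marked gene of their library, and CLE2, CLE8 and CLE11 fell by less. Without that centring CLE27 alone was still called lower. The log2 fold enrichment of the peaks over each gene was centred on the median of each library and tested with limma over the 6166 genes marked in all 12 libraries, with 1 term for each of the 6 groups. Called were 0 members higher at 3 DAI, against 17.1% of all genes tested, and 6 lower, against 17.9%. Without centring 4 members were called higher and 1 lower. The median difference was -0.06 over the members, 4 of 19 above 0, and -0.01 over all genes, 45.8% above 0. The fold enrichment is an average over the whole peak and not over the gene alone. For CLE4, CLE7, CLE5 and CLE6 the peaks compared differ in width between the time points. Genes in 1 peak share its value, so CLE4 and CLE7 carry the same difference, as do CLE5 and CLE6.

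CLE44, which encodes the same TDIF peptide as CLE41, had centred log2 values of -0.14 and -0.02 for Atsdr4l-4, -0.12 and -0.17 for Atsdr4l-5 and -0.10 and -0.02 for Col-0 at 3 DAI. At 1 DAI the values were 0.21 and 0.13 for Atsdr4l-4, 0.10 and 0.16 for Atsdr4l-5 and 0.15 and 0.18 for Col-0. The time points did not overlap, and the difference was -0.25 (SE 0.04, limma adjusted p = 2.9e-04), with -0.25 in Atsdr4l-4, -0.28 in Atsdr4l-5 and -0.23 in Col-0. CLE41 differed by -0.08 (SE 0.04, limma adjusted p = 0.178) and did not pass.

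CLE27 had centred log2 values of -0.12 and -0.20 for Atsdr4l-4, -0.08 and -0.15 for Atsdr4l-5 and -0.13 and -0.14 for Col-0 at 3 DAI. At 1 DAI the values were 0.11 and 0.25 for Atsdr4l-4, 0.09 and 0.17 for Atsdr4l-5 and 0.34 and 0.07 for Col-0. It also did not overlap between the time points (-0.31, SE 0.05, limma adjusted p = 6.0e-04). CLE42, the third gene of the xylem-inhibiting type, overlapped between them in part, at -0.20, -0.34, -0.41, -0.56, -0.37 and -0.34 at 3 DAI and -0.22, -0.24, -0.13, -0.16, -0.21 and -0.24 at 1 DAI (-0.17, SE 0.04, limma adjusted p = 0.00446).

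The other 3 had smaller differences and time points that overlapped. CLE2 had 0.07 and 0.05 for Atsdr4l-4, 0.04 and 0.10 for Atsdr4l-5 and -0.01 and 0.05 for Col-0 at 3 DAI and 0.13 and 0.12 for Atsdr4l-4, 0.03 and 0.20 for Atsdr4l-5 and 0.22 and 0.26 for Col-0 at 1 DAI, a difference of -0.11 (SE 0.04, limma adjusted p = 0.0322). CLE8, needed for early embryo and endosperm growth, had 0.14 and -0.04 for Atsdr4l-4, 0.09 and -0.09 for Atsdr4l-5 and -0.03 and -0.01 for Col-0 at 3 DAI and 0.13 and 0.17 for Atsdr4l-4, 0.15 and 0.10 for Atsdr4l-5 and 0.14 and 0.10 for Col-0 at 1 DAI, a difference of -0.12 (SE 0.04, limma adjusted p = 0.0412). CLE11 had -0.34 and -0.23 for Atsdr4l-4, -0.34 and -0.36 for Atsdr4l-5 and -0.23 and -0.18 for Col-0 at 3 DAI and -0.27 and -0.21 for Atsdr4l-4, -0.12 and -0.17 for Atsdr4l-5 and -0.21 and -0.15 for Col-0 at 1 DAI, a difference of -0.09 (SE 0.03, limma adjusted p = 0.0498). In fits that left out 1 library, CLE44, CLE27 and CLE42 were called each time, and 3 to 5 members were called in all.

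Of the members that did not pass, CLE9 was the one with the largest positive difference, 0.17 (SE 0.07, limma adjusted p = 0.0679), and without Atsdr4l-4 replicate 2 at 3 DAI it was called higher, at 0.24 (limma adjusted p = 0.00429). CLV3 differed by -0.04 (SE 0.03, limma adjusted p = 0.409). Centring sets the zero of this scale. Without it the median gene was 0.16 higher at 3 DAI and 3475 genes were called higher and 86 lower. The 4 members then called higher were CLE9 (0.34, limma adjusted p = 1.03e-06), CLE10, CLE17 and CLE21. CLE27 was the only member still called lower, CLE44 had -0.08 and CLE42 -0.00 without passing, and CLE2, CLE8 and CLE11 turned positive.

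**Figure D5:**
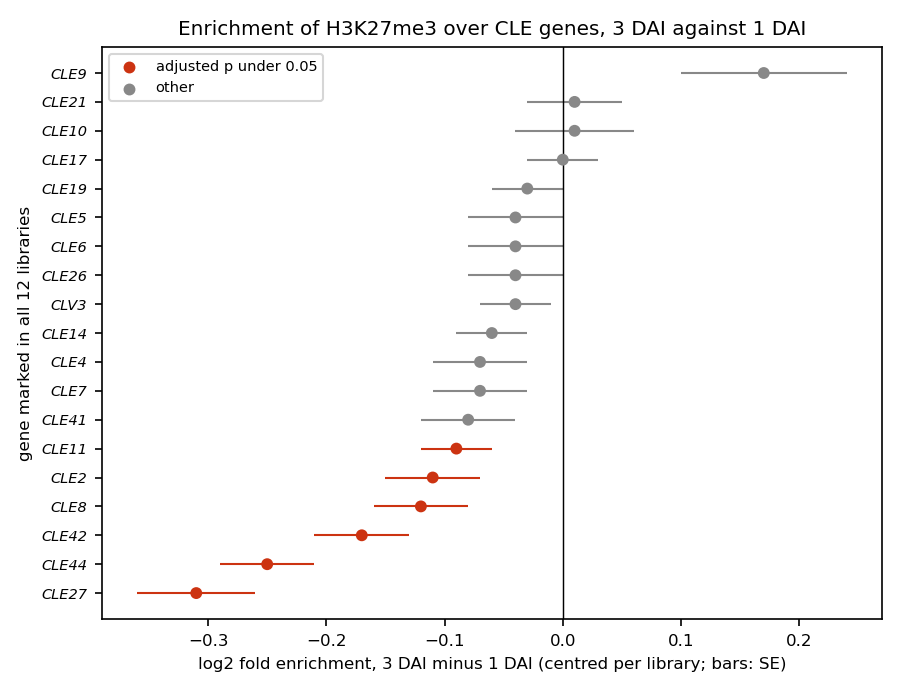
Difference in centred log2 fold enrichment, 3 DAI minus 1 DAI (horizontal axis), for the 19 CLE genes marked in all 12 libraries, with the limma standard error as bars and called genes in red, of which only CLE27 is also called lower without centring. CLE27 and CLE44 lie farthest below 0, at -0.31 and -0.25, and CLE9 farthest above it, at 0.17.

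Between genotypes the strength of the mark did not pass in any of the 19 always-marked members. Over both time points limma called 0 members higher in Atsdr4l, against 0.292% of all 6166 genes, and 0 lower, against 0.405%. At an unadjusted p under 0.05 there was 1 of the 19 members, CLE19, at -0.12 (SE 0.04, limma adjusted p = 0.159). Over all, 326 of the 6166 genes were higher and 459 lower at that level. CLV3 differed by 0.03 (limma adjusted p = 0.774). The test of whether the change with time differed between Atsdr4l and Col-0 called 0 members and 0% of all genes. At an unadjusted p under 0.05, 181 of the 6166 genes were higher and 122 lower. Those included 2 of the 19 members, CLE14 at 0.17 (SE 0.07, limma adjusted p = 0.863) and CLE2 at 0.17 (SE 0.07, limma adjusted p = 0.978).

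Most receptors and other partners of CLE peptides did not carry the mark, as was true of most genes. Of 23 genes listed for the pathway, 3 were marked in all 12 libraries, 0 in some and 20 in none, against 16.3%, 11.5% and 72.2% of all genes. The 3 were the homeobox genes WUS, WOX4 and WOX5, which act downstream of CLE signals in the shoot meristem, the cambium and the root stem cell niche. The receptor genes CLV1, CLV2, CRN, BAM1, BAM2, RPK2 and the others of the list had no marked library. BAM3, the receptor of CLE45, was covered by at most 42.4% and PXY by at most 12.8%. None of the 23 was called in either coverage test, and 3 had coverage that varied. By limma, WOX4, the cambium target of TDIF and PXY, fell by 0.19 relative to the library median on the log2 scale at 3 DAI (SE 0.04, adjusted p = 0.00394), while WUS differed by 0.01 (adjusted p = 0.907) and WOX5 by -0.00 (adjusted p = 0.946). Of all genes tested, 17.9% were called lower on this centred scale. Without centring the median gene was 0.16 higher at 3 DAI, and no uncentred value is given for WOX4.

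The RY motif (CATGCA, or TGCATG on the other strand), bound by the B3-domain proteins VAL1 and VAL2 that recruit Polycomb complexes, was searched in the 300 bases before each gene. It occurred in 8 of 31 members (25.8%) and in 10.6% of 37885 genes. The 8 were CLE2, CLE5, CLE6, CLE11, CLE19, CLE20, CLE26 and CLE43, of which 6 were marked in all 12 libraries. Windows around it are shown for 3 of these 6, CLE2, CLE6 and CLE19, as 26 bases of the coding strand with the motif in capitals, overlapping copies merged (RefSeq TAIR10.1, chr4:10211338-10211363, chr2:13253963-13253988 and chr3:8768708-8768733).
CLE2: aatggatgatTGCATGCATGgctcaa
CLE6: tctttgtgtaTGCATGCAtatatgat
CLE19: aaaagtggaaCATGCATGatttccac
The telobox (AAACCCTA, or TAGGGTTT) occurred before CLE14 alone, 3.23% of members against 5.53% of genes. A GA repeat (GAGAGA, or TCTCTC) occurred before 8 members, 25.8% against 24.1%. A match is only a run of letters and shows no bound protein.

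The 300 bases before CLE43 are printed because this gene had the largest fall with time and holds overlapping RY copies. They are from the plus strand of RefSeq TAIR10.1, chr1:8922116-8922415, with capitals for the RY copies, the first 47 bases before the gene.
CLE43: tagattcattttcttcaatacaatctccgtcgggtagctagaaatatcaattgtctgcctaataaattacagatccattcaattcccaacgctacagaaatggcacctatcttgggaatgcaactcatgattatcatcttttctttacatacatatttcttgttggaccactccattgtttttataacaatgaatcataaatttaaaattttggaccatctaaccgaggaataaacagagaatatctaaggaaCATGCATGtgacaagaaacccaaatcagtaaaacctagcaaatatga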

How the data were processed

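H3K27me3 ChIP-seq was done on seedlings of 3 genotypes at 3 and 1 DAI, 12 libraries. Per the study's methods the authors aligned reads to TAIR10 with Bowtie 2 and called broad peaks against joined mock IgG libraries. The submitters' processing notes name bcl2fastq 2.19, fastp 0.23.4, SAMtools 1.6 and MACS2 2.2.7.1 and 2.2.6. Each deposited peak list gives position, a score (not used), fold enrichment over mock, which is a peak-wide ratio, and −log10 of the p and q values as the authors' caller wrote them. No read counts are in these lists, so depth is unknown and no interval was set.

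Peaks were intersected with TAIR10.1 gene bodies (chromosome lengths checked against the peaks), and the covered percent and mean fold enrichment of each gene were computed in Python 3.11.15 (numpy 2.4.6, pandas 2.3.3, scipy 1.17.1, matplotlib 3.10.9). Covered percent was tested by exact permutation over all genes that vary. Log2 fold enrichment, centred per library, was tested by limma 3.58.1 in R 4.3.3. Both used Benjamini-Hochberg adjustment at 0.05 and were tested on simulated data. Values in every library are given for CLV3, for each member marked in some libraries and for each that passed a test, and ranges for the rest. The members and lists were chosen with earlier results of these data known. Of the pathway list, SKM1, CIK1, CIK2, CIK3 and CIK4 were dropped because those names were neither the symbol nor a synonym of the locus in the annotation. Of the 4 motifs searched upstream, 1 is not reported here. Alternatives were other peak filters, thresholds and windows, scaling, a replicate block and leaving out each library.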

Additional observations from a re-analysis of the deposited data

Results flagged for a closer look

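Among the 4 Atsdr4l libraries of a time point, some values stood apart from the other 3 by Dixon's criterion, which chance meets in about 1 of 20 groups. In each case the other 3 libraries were tied, so any departure is picked out. At 3 DAI, Atsdr4l-4 replicate 1 had 23.0 members marked, against 24.0 in the others, and CLE22 covered 52.4%, against 100%. Atsdr4l-5 replicate 2 at 3 DAI had CLE9 covered 85.1% and CLE8 covered 99.7%, against 100% in the others, and CLE1 covered 41.7%, against 0%. At 1 DAI, Atsdr4l-4 replicate 1 had CLE3 covered 91.6%, against 100%, and Atsdr4l-4 replicate 2 had CLE13 covered 41.9%, against 0%. CLE12 was covered 88.2% in Atsdr4l-5 replicate 2 at 1 DAI, against 0% in the others.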

How the results depend on the processing

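The main limits are 2 libraries a group, unknown depth and a coverage test whose calls sit at its smallest p. Members marked per library averaged 23.5, against 21.0 with peaks of a −log10 q of at least 5, 18.2 with a fold enrichment of at least 2, 24.6 at a threshold of 25% of the body, 22.1 over a 2 kb window and 21.2 with 1 kb upstream added. The coverage test between time points called 1966 genes and 3 members, but 0 and 0 with peaks of a −log10 q of at least 5, with a fold enrichment of at least 2, and with the replicate block, whose smallest p is 0.0312 (adjusted p = 0.130 for CLE13, CLE40 and CLE43). Without Atsdr4l-5 1 DAI replicate 2, CLE22 had 33.1 points. With the stricter q, CLE13 had 91.3 points (adjusted p = 0.0518). For limma, 2157 genes between time points became 3561 without centring, and 43 between genotypes became 26 with the replicate block, 11 for Atsdr4l-4 alone and 6 for Atsdr4l-5 alone. Any covered base in place of 50% gave 1 of 21 members called between genotypes (CLE40, lower in Atsdr4l), against 18 genes higher and 31 lower of 7869. In that fit 1 member was called lower for Atsdr4l-4 alone and 1 for Atsdr4l-5 alone. The interaction, 0 genes, became 14 without centring and 1 on −log10 q. Leaving out 1 library gave 23.4 to 23.7 members marked, 0 to 1889 genes and 0 to 4 members in the coverage test between time points, 0 to 0 between genotypes, and for limma 1642 to 2239 genes and 3 to 5 members between time points, 0 to 139 genes and 0 members between genotypes (139 without Atsdr4l-4 3 DAI replicate 2, 0 without Col-0 3 DAI replicate 1), and 0 to 2 genes and 0 members for the interaction. Without Atsdr4l-4 1 DAI replicate 2, CLE43 had an adjusted p of 0.0796. CLE44, CLE27 and CLE42 were called in each of these fits. Differences changed sign for CLE3 between genotypes (-2.13 and -37.5 points with the stricter q and fold), CLE11 between genotypes (5.6 with the fold), CLE22 between time points (-8.92 with 6000 peaks, -0.192 without Atsdr4l-5 1 DAI replicate 1) and, without centring, CLE11 (0.08), CLE8 (0.05), CLV3 (0.13), CLE41 (0.09) and CLE2 (0.06). The replicate block allows fewer relabellings in the coverage test, and otherwise the cause was not tested. Between the time points, deviations of libraries with the same number had correlations of 0.008, -0.006 and 0.009 for coverage. For log2 fold enrichment the correlations were -0.128, 0.079 and 0.034. Whether libraries with the same number share a culture or batch was not tested. With the block, limma gave CLE9 an adjusted p of 0.0288, CLE8 0.0509 and CLE11 0.0599.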
